A study of Mus musculus with 7 samples.

Results

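Smooth muscle cells of the seminal vesicle were selected on their UMI counts (unique molecular identifiers, each of which marks 1 captured RNA molecule). A cell was taken if it held at least 500 genes, at most 10% mitochondrial UMIs, at least 1 UMI of *Myh11*, at least 1 UMI of *Cnn1*, *Actg2* or *Des*, and 0 UMIs of *Rgs5*, *Kcnj8*, *Ptprc* and *Pecam1*. Of 22065 cells that passed the filter on genes and mitochondrial UMIs in 21 mice, 442 were selected (2.00%, exact Clopper-Pearson interval 1.82% to 2.20%). The whole series held 40342 passing cells in 23 mice. Because *Myh11*, *Cnn1*, *Actg2* and *Des* chose the cells, and the cells were compared with cells that failed the same rule, differences from other cells are given as descriptions without a test.

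The study profiled the vesicles of wild type male mice by droplet single-cell RNA-seq. The aging pool held 10 tagged C57BL/6J mice on chow, with 2 each at 3 months, at 20 months, at 20 months with rapamycin, at 28 months and at 28 months with rapamycin. The diet pool held 8 tagged FVB/NJ mice of 3 months, with 2 each on a control, a high fat, a low protein or a caloric restriction diet, and 3 further FVB/NJ mice of 3 months (control, high fat, low protein) were run as single-mouse libraries. A young and an old FVB/NJ individual, of 3 and 18 months on the control diet, were also run singly, and their cells were used for comparison only because these libraries held almost no seminal vesicle secretory RNA. No C57BL/6J mouse was run outside the aging pool, so that strain and pool cannot be told apart. Each mouse is 1 biological sample. Libraries shared between 6 and 30 cell barcodes in pairs, and no barcode was assigned to more than 1 mouse of a pool.

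Smooth muscle wraps the secretory epithelium of the vesicle and contracts at ejaculation, mainly under sympathetic nerves that release noradrenaline and ATP. Contraction starts when calcium activates myosin light chain kinase through calmodulin. It is graded by kinases that hold myosin phosphatase in check, and opposed by cyclic GMP. In smooth muscle, serum response factor and its partner myocardin drive many contractile genes by binding a short A/T-rich element in their promoters, the CArG box.

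The aging pool gave 35 smooth muscle cells, the diet pool 360 and the single-mouse libraries 47. The median cell held 3799 UMIs and 1483 genes over all 21 mice. It held 6408 UMIs in the aging pool, 3836 in the diet pool and 1692 in the single-mouse libraries. Summed over the cells of a mouse, the depth ran from 8854 to 136095 UMIs in the aging pool, from 41011 to 751817 in the diet pool and from 33014 to 54050 in the single-mouse libraries. Levels below are CPM, a gene's count scaled to the summed UMIs of a mouse, and, unless another group is named, are given for the 11 FVB/NJ mice with at least 10 smooth muscle cells. Counts were of transcript ends and were not scaled to length, so that they are compared between mice and not between genes.

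Genes that the selection did not use bore out the label. *Acta2*, smooth muscle alpha actin, stood at a median of 11400 CPM (4720 to 16600) and *Tagln*, an actin-binding protein, at 11000 CPM (4400 to 18900). The other markers that had been listed but not used (*Myl9*, *Tpm2*, *Lmod1*, *Smtn*, *Mylk*, *Synpo2*) were present in each of the 11 mice. After every cell was thinned to 1000 UMIs, *Acta2* was found in 93.9% of 440 smooth muscle cells, against 6.73% of 1575 fibroblasts and 1.85% of 1834 immune cells, at median depths of 3785, 2785 and 3594 UMIs before thinning. The immune share serves as the level that free RNA can give, except for genes that immune cells express themselves. Of 1851 immune cells 1174 came from the aging pool, where smooth muscle was rare. Within the diet pool alone, *Acta2* was found in 96.4% of 360 smooth muscle cells, 9.45% of 794 fibroblasts and 3.17% of 568 immune cells.

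RNA of other cells was measured in the same cells. The rule also set *Pecam1*, *Rgs5* and *Kcnj8*, of the endothelial and pericyte lists, to 0. The 8 endothelial markers made up 0.00176% of the UMIs and were led by *Emcn* (23 UMIs over the 21 mice), and the 5 Schwann markers made up 0.000324%, with *Sox10* at 0. The 10 immune markers made up 0.0269%, with *Ptprc* at 0 by the rule, and *Cd74* was the one above 10 CPM in the median mouse (24.4 CPM, 0 to 1190). The 13 pericyte and vascular mural markers made up 0.0280%, led by *Mcam*, and the 12 fibroblast markers 0.250%. At least 1 UMI of *Dcn*, *Col1a1* or *Lum*, which fibroblasts express strongly, was found in 303 cells (68.6%), and *Dcn* stood at a median of 481 CPM against 3610 CPM in fibroblasts. Fibroblasts had been chosen in part by these genes. A UMI of the epithelial genes *Epcam* or *Krt8* was found in 57 cells (12.9%). No doublet caller was run, and the sample tags had removed only doublets between mice.

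The abundant secretory products of the vesicle, led by *Svs5*, made up 12.4% of the UMIs, and this share came mostly from few cells. In 11 cells secretory RNA made up 20% or more of the UMIs. In mouse Y2 (3 months, aging pool), 2 such cells held 96.3% of the UMIs and gave a secretory share of 65.2%. In the first caloric restriction mouse (CR1), 2 such cells held 22.9% of the UMIs, and the secretory share was 17.0% with them and 0.243% without them. Without such cells the secretory share was 1.46%, 2.50% and 2.93% in the control, high fat and low protein single-mouse libraries, against 22.2%, 41.1% and 24.2% with them. In the median cell it was 0.308%.

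Promoters of muscle and cytoskeletal genes are shown as examples, each with a CArG box or CArG-like element. Such an element was found in 10 of 25 matched contractile promoters, as given below. The sequences are the 250 bases before the transcription start in RefSeq on GRCm38.p6, written 5′ to 3′ on the strand of the gene, and capitals mark CArG boxes and CArG-like elements. The first is *Acta2* (chr19:34255374-34255623, minus strand), the second *Myl9*, a myosin regulatory light chain (chr2:156775214-156775463, plus strand), the third *Vcl*, vinculin (chr14:20929148-20929397, plus strand), and the fourth *Acta1*, skeletal alpha actin (chr8:123894776-123895025, minus strand).
Acta2: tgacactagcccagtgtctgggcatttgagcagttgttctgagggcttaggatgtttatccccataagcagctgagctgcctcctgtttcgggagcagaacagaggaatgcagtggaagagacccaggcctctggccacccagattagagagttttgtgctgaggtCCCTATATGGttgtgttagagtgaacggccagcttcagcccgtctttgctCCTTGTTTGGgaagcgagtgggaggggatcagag
Myl9: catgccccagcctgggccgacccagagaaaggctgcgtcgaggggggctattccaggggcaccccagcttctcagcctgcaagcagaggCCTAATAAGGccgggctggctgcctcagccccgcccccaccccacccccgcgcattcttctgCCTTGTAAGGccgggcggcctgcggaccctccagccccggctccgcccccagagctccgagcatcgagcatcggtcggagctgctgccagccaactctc
Vcl: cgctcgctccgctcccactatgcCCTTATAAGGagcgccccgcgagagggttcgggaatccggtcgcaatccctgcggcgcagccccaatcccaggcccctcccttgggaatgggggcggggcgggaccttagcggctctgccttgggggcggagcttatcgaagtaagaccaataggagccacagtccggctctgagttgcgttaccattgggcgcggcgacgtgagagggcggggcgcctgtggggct
Acta1: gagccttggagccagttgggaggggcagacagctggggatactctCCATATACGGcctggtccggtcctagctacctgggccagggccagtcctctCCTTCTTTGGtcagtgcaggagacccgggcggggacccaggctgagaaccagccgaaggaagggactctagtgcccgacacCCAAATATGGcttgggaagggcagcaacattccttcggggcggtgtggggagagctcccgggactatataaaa

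A CArG box was counted where CC and GG flanked 6 bases that were each A or T, and a CArG-like element where at most 1 of the 6 was C or G. Both forms were searched on both strands, and an exact box also counts as a CArG-like element. *Acta2* carried CArG-like elements 84 and 34 bases before its start, and no exact box in this window. *Myl9* carried an exact box at 161 bases and a CArG-like element at 99. *Vcl* carried an exact box at 227 bases. *Acta1* carried CArG-like elements at 205 and 154 bases and an exact box at 73. Of 27025 genes with a promoter in the table, 1.62% held an exact box and 9.78% at least a CArG-like element. In the list of contractile and cytoskeletal genes, 5 of 25 matched promoters held an exact box (20%: *Fhl1*, *Ldb3*, *Myl6*, *Myl9* and *Vcl*) and 10 held at least a CArG-like element (40.0%). Among the 25 leading genes below, 18 were matched, of which 3 held an exact box (16.7%) and 6 at least a CArG-like element (33.3%). *Myh11*, *Actg2* and *Tagln* were not among those matched. Short lists of other cells also held CArG-like elements, in 2 of 5 endothelial promoters (40%), 2 of 7 immune (28.6%), 2 of 8 fibroblast (25%) and 2 of 9 epididymis epithelium promoters (22.2%), and 1 of the last held an exact box (11.1%, *Lcn10*). Of the epithelial and basal promoters 1 of 6 held a CArG-like element (16.7%), and the pericyte, secretory and Schwann lists held none in 8, 10 and 1 promoters. A match is a description of these letters and not of binding.

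Cells at the edge of the selection were different from those well inside it. The 25 cells with a single UMI of *Myh11* and a single UMI of the other 3 genes held 770 CPM of *Acta2* and 483 CPM of *Tagln*. The 364 cells with 2 or more of each held 14500 and 15000 CPM. Just outside, 90 cells with 1 UMI of *Myh11* and none of the others held 134 and 147 CPM, and 893 cells with 1 UMI of the others and no *Myh11* held 59.8 and 88.3 CPM. *Svs5* stood at 205000 CPM in the cells just inside against 32800 CPM in the 364 cells. The secretory RNA at the edge came from few cells: 4 of the 25 held 20% or more secretory UMIs, and the median share was 0.695%, against 0.276% in the 364 cells. The median edge cell held 405 CPM of *Acta2*, against 14100 CPM, and 17 of the 25 held any. Of all 442 cells, 79.0% held a UMI of *Cnn1*, 65.2% of *Actg2*, 90.3% of *Des*, and 56.1% of each of these.

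The 25 genes with the largest median ratio to all other cells of the same mouse were led by the contractile apparatus. Ratios are differences of log2(CPM + 10), which understate the change of genes at low levels. The largest were 6.72 for *Tagln*, 6.40 for *Acta2*, 5.86 for *Myl9*, 5.27 for *Tpm2* (a tropomyosin) and 5.13 for *Mylk* (myosin light chain kinase), besides the 4 genes of the rule. Further down were muscle-structure genes outside the core apparatus, such as *Synpo2* (4.28), *Cald1* (4.22) and *Pdlim3* (3.90), and genes of striated muscle, *Acta1* (4.53) and *Tnnt2* (3.77), a cardiac-type troponin. Of the 25 genes, 23 were higher in each of the 11 mice. The exceptions were *Mustn1*, higher in 9 and at 0 in 2 mice, and *Tnnt2*, higher in 10 and at 0 in 1.

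**Figure D1:**
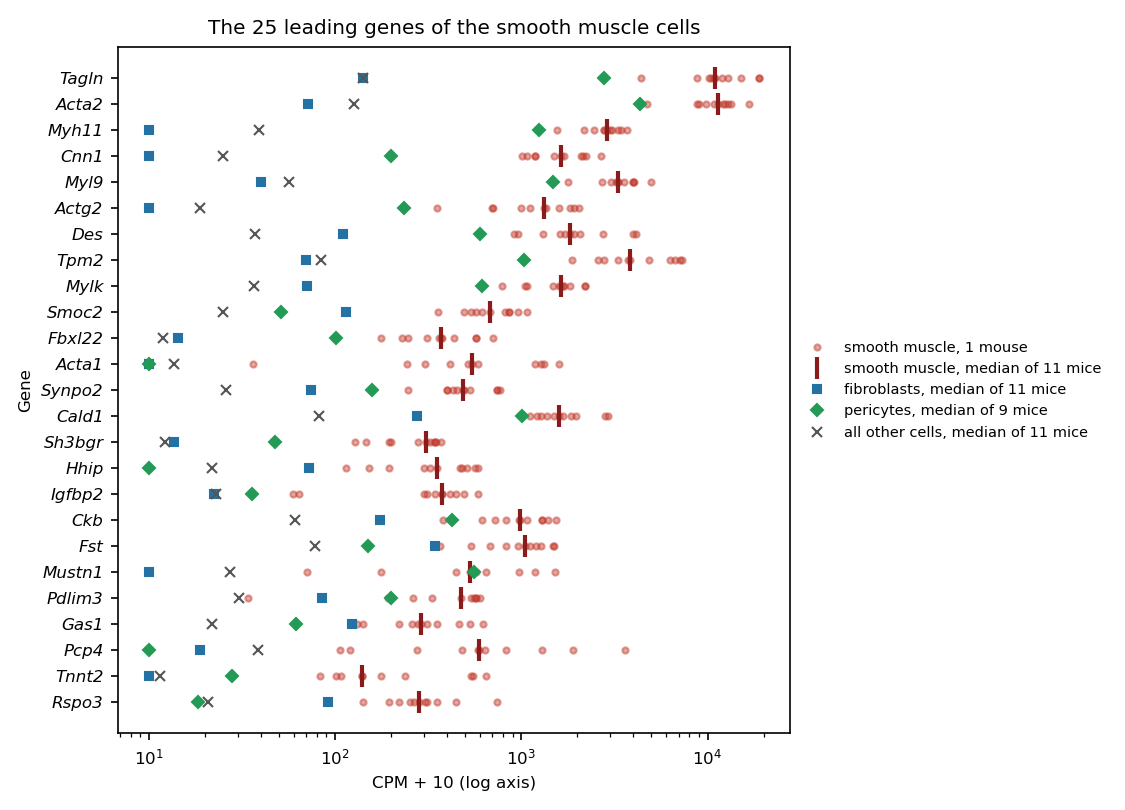
CPM + 10 (log axis) of the 25 leading genes in smooth muscle cells of 11 FVB/NJ mice (points, 1 per mouse, with the median as a bar) and the median in fibroblasts, pericytes and all other cells. *Tagln* and *Acta2* lie farthest to the right, and pericytes come nearest for the contractile genes. The genes were chosen by the contrast with all other cells, so the plot is a description, and mice at 0 CPM lie at 10 beneath other marks.

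The same list held secreted proteins. *Smoc2* (a matricellular protein, 5.01), *Igfbp2* (an insulin-like growth factor binding protein, 4.07), *Fst* (follistatin, an activin inhibitor, 4.02) and *Rspo3* (R-spondin, an amplifier of Wnt signalling, 3.76) were among the leading genes. *Hhip*, a surface protein that binds hedgehog ligands, reached 4.18 and *Gas1*, a hedgehog co-receptor, 3.86. Against fibroblasts the ratios of these genes were smaller, from 1.34 for *Gas1* to 3.64 for *Igfbp2*. Against pericytes they were 3.64 for *Smoc2*, 3.93 for *Hhip* and 3.82 for *Rspo3*. Each of these genes but *Igfbp2* was nearer to its fibroblast level than to its pericyte level.

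Of the 28 listed contractile and cytoskeletal genes, 27 reached 10 CPM in the median mouse, and 26 of them were at least 2-fold above fibroblasts of the same mouse and 0 at least 2-fold below. Over all 6687 genes at that level, 6.07% were 2-fold above fibroblasts and 4.34% below. The median log2 ratio was 2.80 for the list and 0.00 for all genes. Fibroblasts with a UMI of *Myh11* had been left out of this comparison by their definition. Against pericytes, 17 of the 27 were 2-fold above and 0 below, beside 14.2% and 3.5% of all genes, with medians of 1.25 and 0.07. *Tpm4*, a tropomyosin of non-muscle filaments, was the listed gene that stood lower than in fibroblasts (log2 ratio -0.87), and it was higher in 2 of 11 mice. The list held 5.47% of all UMIs of the smooth muscle cells, and the share varied between cells, with a median of 5.64% and with 1.13% and 11.4% at the 10th and 90th percentile.

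**Figure D2:**
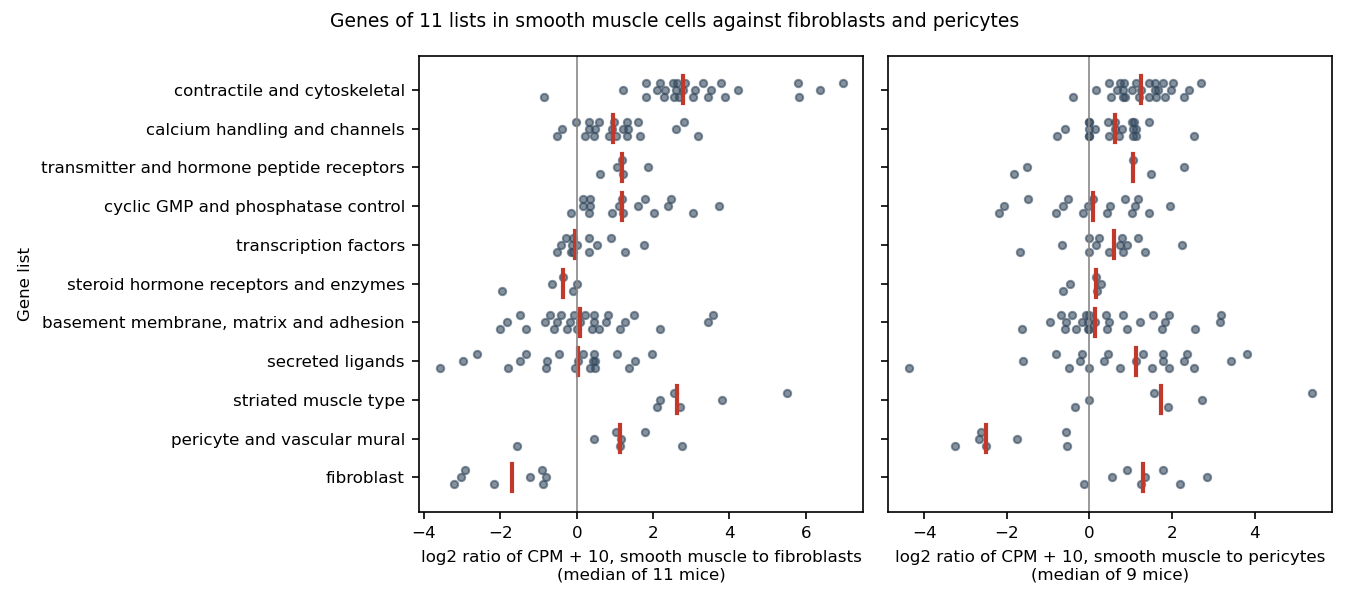
Log2 ratio of CPM + 10 of smooth muscle cells to fibroblasts (left, median of 11 mice) and to pericytes (right, median of 9 mice), with 1 point per gene at 10 CPM or more and the median of each list as a bar. Contractile and striated muscle type genes have medians right of 0 in both panels. Pericyte markers have a median left of 0 against pericytes, and fibroblast markers against fibroblasts. Some of these markers chose the cells, so their direction was set by the selection.

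Calcium handling genes were carried by the sarcoplasmic pump and the caveolae. Of 22 listed genes at 10 CPM, 10 were 2-fold above fibroblasts and 8 above pericytes, beside 6.07% and 14.2% of all genes. *Atp2a2*, the pump that refills the sarcoplasmic reticulum, had a median of 904 CPM (352 to 1100) and was found in 51.8% of thinned cells, against 24.3% of fibroblasts and 8.62% of immune cells. *Cav1*, caveolin, had 742 CPM (444 to 987) and was found in 50.0% of cells, against 6.60% and 1.53%, in a draw that lay above the 44.2% expected over all draws. *Itpr1*, the release channel of the reticulum, was found in 12.7% of cells. *Cacna1c*, the pore of the L-type calcium channel, had 34 UMIs in all 21 mice and was found in 0.682% of thinned cells (1.64% expected over all draws), against 0.317% of fibroblasts and 0.0545% of immune cells. *Kcnmb1*, the muscle subunit of the large potassium channel, was found in 2.50%, against 0.0635% of fibroblasts. *Slc8a1*, the sodium-calcium exchanger, stood between 70.5 and 270 CPM in the 8 mice of the diet pool and was listed at 0 in the 3 single-mouse libraries, which were counted on another gene reference.

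Receptors were sparse at this depth. Of 37 listed receptors for transmitters and peptide hormones, 5 reached 10 CPM in the median mouse. *Ednra*, an endothelin receptor, was found in 5.23% of thinned cells, against 0.698% of fibroblasts and 0 of 1834 immune cells (exact interval up to 0.201%). *Ptger3*, a prostaglandin E receptor, was found in 4.09%, against 1.40% and 0.109%. Within the diet pool alone *Ptger3* was found in 2.22% of smooth muscle cells and 1.76% of fibroblasts, and *Ednra* in 6.11% and 1.01%. *P2rx1*, the ATP-gated channel of smooth muscle, was found in 2.27%, against 0 and 0.0545%. *Adra1a*, an alpha adrenergic receptor, was found in 1.14% (exact interval 0.37% to 2.63%), against 0.0635% and 0.0545%. The muscarinic receptors *Chrm2* and *Chrm3* were found in 0.455% and 0.682%. *Adra1d*, *Adra2b*, *Chrm1*, *Tacr1*, *Tacr2* and *Ptgfr* had no UMI in the thinned cells. The exact interval for their share of cells with a UMI reached up to 0.835%.

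**Figure D3:**
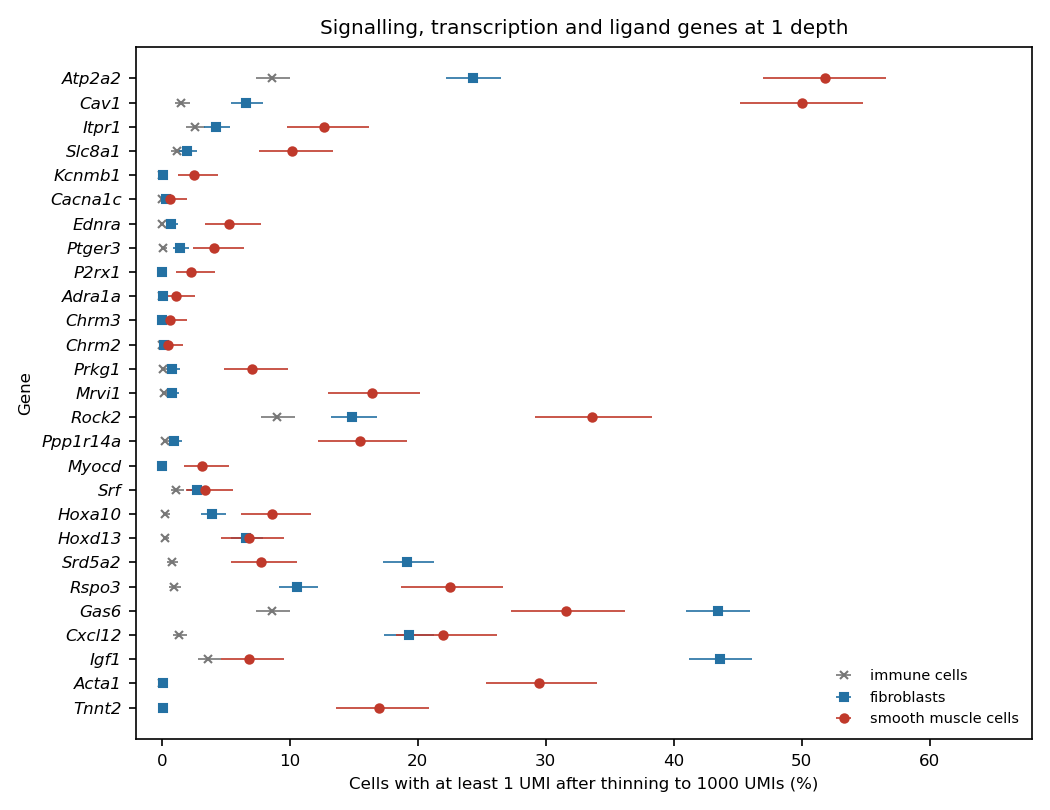
Share of cells with at least 1 UMI (%) after thinning to 1000 UMIs, for smooth muscle cells (440), fibroblasts (1575) and immune cells (1834), with exact 95% binomial intervals that cover counting error only. *Atp2a2* and *Cav1* lie highest, receptors near 5% or below, and *Igf1* and *Srd5a2* are found in a larger share of fibroblasts.

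Both arms of force control were present. In the list of genes for cyclic GMP signalling and myosin phosphatase control, 17 of 17 reached 10 CPM. Of these, 10 were 2-fold above fibroblasts, beside 6.07% of all genes. Against pericytes, 5 were 2-fold above and 3 below, beside 14.2% and 3.5% of all genes. *Ppp1r12a*, the targeting subunit of myosin phosphatase, had a median of 429 CPM (368 to 557) and *Rock2*, a kinase that inhibits this phosphatase, 485 CPM (237 to 542). *Ppp1r14a*, the phosphatase inhibitor CPI-17, was found in 15.5% of thinned cells against 0.952% of fibroblasts, and *Mrvi1*, a substrate of cyclic GMP-dependent kinase, in 16.4% against 0.762%. The soluble guanylate cyclase subunits *Gucy1a1* and *Gucy1b1*, the receptor for nitric oxide, were lower than in pericytes, with log2 ratios of -2.20 and -2.06.

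Most listed transcription factors were sparse. *Prrx1* was found in 14.5% of thinned cells, against 9.97% of fibroblasts and 0.654% of immune cells. *Tead1* was found in 10% of thinned cells, against 10.5% and 1.69%. *Myocd*, myocardin, was found in 3.18% of thinned cells and in none of the fibroblasts or immune cells, whereas *Srf*, its partner, was found in 3.41% of smooth muscle cells and 2.73% of fibroblasts. Posterior Hox genes were shared with fibroblasts: *Hoxd13* was found in 6.82% against 6.60%, and *Hoxa13* in 6.14% against 4.57%. *Hoxa10* was found in 8.64% against 3.94%. Of the 14 listed factors at 10 CPM, 2 were 2-fold above fibroblasts, beside 6.07% of all genes.

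*Srd5a2*, which makes dihydrotestosterone from testosterone, was found in 7.73% against 19.2% of fibroblasts, and its median log2 ratio to fibroblasts was -1.97. It was listed at 0 in smooth muscle cells of the single-mouse libraries, which were counted on another gene reference. In their other cells *Srd5a2* stood at 1.23 CPM, against 43.9 CPM in the diet pool. Within the diet pool alone it was found in 8.89% of smooth muscle cells against 21.8% of fibroblasts. Of the 5 steroid genes at 10 CPM, 0 were 2-fold above fibroblasts and 1 below, beside 6.07% and 4.34% of all genes.

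Matrix and adhesion genes split. Of 27 at 10 CPM, 6 were 2-fold above fibroblasts and 4 below, beside 6.07% and 4.34% of all genes. Those above included *Itga8* (3.43), *Itga1* (2.17) and *Itga7* (1.12), integrin chains, and *Dmd* (3.57), dystrophin, which links the cytoskeleton to the basement membrane. Those below were *Lama2*, *Lamb1* (-1.82), *Lox* and *Fbn1* (-1.32), which encode laminin chains, a collagen crosslinker and fibrillin. Col4a chains that form the basement membrane differed less, with -0.61 for *Col4a5* and 0.46 for *Col4a1*.

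Secreted ligands lay both above and below their levels in neighbouring cells. Of 21 at 10 CPM, 4 were 2-fold above and 6 below fibroblasts, beside 6.07% and 4.34% of all genes. Against pericytes, 11 were 2-fold above and 2 below, beside 14.2% and 3.5% of all genes. *Rspo3* was found in 22.5% of thinned cells against 10.6% of fibroblasts, *Pdgfa* in 6.82% against 0.889% (and 4.80% of immune cells), and *Tgfb3* in 7.27% against 2.35%. *Igf1*, a growth factor, was found in 6.82% against 43.6%, and *Ccl2*, a monocyte chemokine, in 12.7% against 60.8%, and in 33.7% of immune cells, which express it themselves. *Gas6*, a ligand of TAM receptors, and *Cxcl12*, a chemokine, had medians of 536 and 329 CPM, and stood within 2-fold of fibroblasts.

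A few genes of striated muscle were expressed. Of 22 listed, 6 reached 10 CPM in the median mouse. Each of the 6 was 2-fold above fibroblasts, beside 6.07% of all genes. *Acta1*, skeletal alpha actin, was found in 29.5% of thinned cells, against 0.127% of fibroblasts and 0.0545% of immune cells. *Tnnt2* was found in 17.0% and *Tnnt1*, the slow skeletal troponin T, in 16.6%, against 0.127% and 1.21% of fibroblasts. *Tnnc2*, *Myom1* and *Ckm* were found in 4.77%, 4.55% and 2.73%. The sarcomeric myosins *Myh1*, *Myh4*, *Myh6* and *Myh7*, titin (*Ttn*) and the muscle stem cell factors *Pax7* and *Myog* had no UMI in the thinned cells. The expression of *Acta1* varied between mice. It stood at 233 and 293 CPM in the pooled control mice, 1590 and 1270 CPM under caloric restriction, 573 and 407 CPM on high fat, 26.3 and 507 CPM on low protein, and 1310, 537 and 1180 CPM in the control, high fat and low protein single-mouse libraries.

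The share of smooth muscle cells differed between the sets of mice and, among the 21 mice, was highest under caloric restriction. In the diet pool it was 4.54% and 6.90% of the cells of the control mice, 10.2% and 14% under caloric restriction, 3.89% and 3.56% on high fat and 4.46% and 3.97% on low protein. Both caloric restriction mice lay above the other 6. The other 3 diets did not overlap either, with control above low protein and low protein above high fat, but the counting intervals of their nearest mice overlapped. The mean was 12.1% ± 2.64 (SD, n = 2) under caloric restriction and 4.55% ± 1.21 (SD, n = 6) in the others. An exact permutation test of the 4 diets over the 8 mice gave p = 0.00952, the smallest the design allows, and p = 0.0238 after Benjamini-Hochberg adjustment over 5 tests of shares. When 1 mouse was left out in turn, the difference of caloric restriction from the others ran from 5.68 to 9.42 percentage points, and with 1 caloric restriction mouse left, whose spread is then unmeasured, the adjusted p was 0.0238 and 0.0159. It was lost without either control mouse (adjusted p = 0.0833), without either high fat mouse or the first low protein mouse (0.127) and without the second low protein mouse (0.111), all by the exact permutation test.

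The higher share moved with other cells of the same mice. Fibroblasts made up 22.4% and 16.9% of the cells under caloric restriction, against 9.65% to 16.5% in the other 6 mice, and the number of smooth muscle cells per fibroblast was 0.456 and 0.828 under caloric restriction and 0.471 and 0.667 in the control mice, which overlapped. It was 0.277 and 0.271 on high fat and 0.360 and 0.240 on low protein, below both caloric restriction mice. Endothelial cells made up 1.62% and 2.18% under caloric restriction, against at least 4.44% in the other 6 mice of the pool. Counted without secretory cells, the smooth muscle share was 11.2% and 14.4% under caloric restriction and 3.96% to 7.59% in the others. Whether the share reflects the tissue or the release of cells during dissociation cannot be told apart from these counts.

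**Figure D4:**
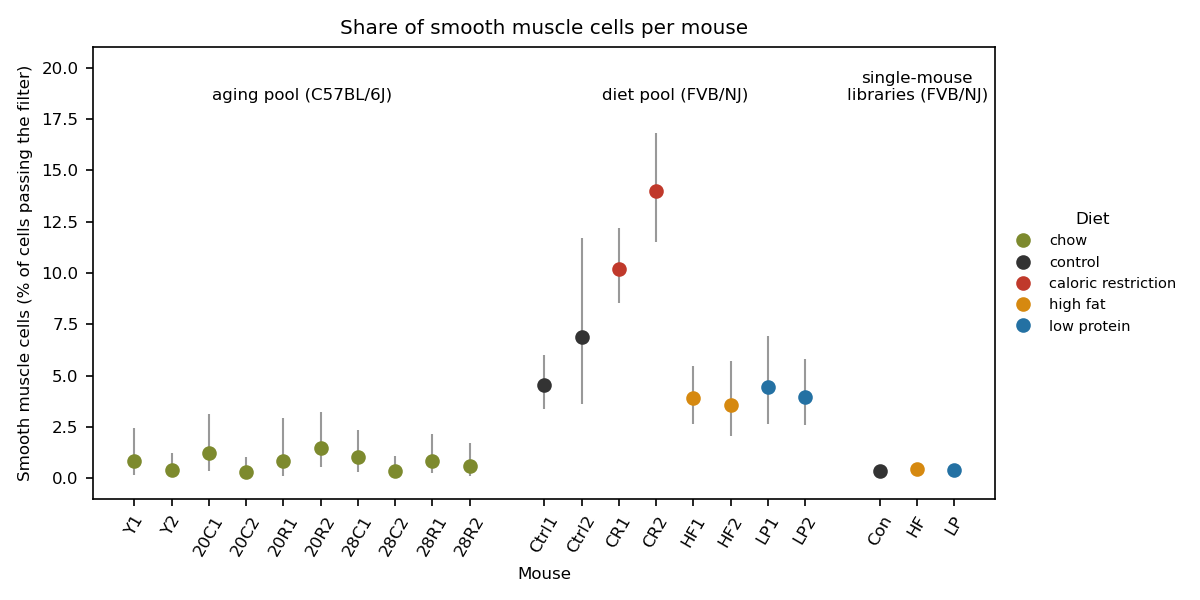
Smooth muscle cells as a percent of the passing cells of each of the 21 mice, coloured by diet, with exact 95% binomial intervals that cover counting error only. The 2 caloric restriction mice (10.2% and 14%) lie above the other 6 mice of the diet pool, and the aging pool and single-mouse libraries lie at 1.49% or below.

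The single-mouse libraries held 0.356%, 0.442% and 0.408% smooth muscle cells (control, high fat and low protein, in that order). Each lay below every mouse of the diet pool, but the difference from the pool did not pass the adjusted threshold (exact permutation test, p = 0.0424, adjusted p = 0.0707). In these libraries 66.3% to 81.7% of the cells were secretory, and without secretory cells the shares were 1.08%, 1.47% and 2.31%. In the aging pool the share had a mean of 0.792% ± 0.387 (SD, n = 10), with a lowest value of 0.286% and a highest of 1.49%, against 6.44% ± 3.78 (SD, n = 8) in the diet pool. The exact permutation test gave p = 2.3e-05, the smallest it allows, and an adjusted p = 0.000114, and no mouse of one pool overlapped with the other. The 3-month mice of the aging pool (0.845% and 0.423%) also lay below every 3-month mouse of the diet pool. Strain, diet (chow against the study diets) and pool cannot be told apart in this difference.

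Within the aging pool no difference passed. The share was 0.845% and 0.423% at 3 months and 0.832% ± 0.413 (SD, n = 8) at 20 and 28 months (exact permutation test, p = 0.556). It was 0.939% ± 0.384 (SD, n = 4) with rapamycin and 0.725% ± 0.469 (SD, n = 4) without it at 20 and 28 months (exact permutation test, p = 0.486, adjusted p = 0.556). These mice gave between 2 and 6 smooth muscle cells each, below the limit of 10 for a fit of genes, and their genes are given as a sum. With the limit lowered to 5 cells, 2 aging mice (20R2 and 28C1) could be set against the 8 mice of the diet pool, and 39 of 1614 genes were higher (2.42%) and 24 lower (1.49%) by edgeR's quasi-likelihood test, but strain, age, diet and pool, and rapamycin in 20R2, cannot be told apart there. Over the 35 cells *Acta2* stood at 7510 CPM, *Tagln* at 7160 CPM, *Igfbp2* at 636 CPM and *Wif1* at 1590 CPM. Mouse Y2, with its 2 secretory-rich cells, held 136095 of the 350654 UMIs, and without it the sums were 12100, 11400, 1030 and 2520 CPM. *Ccl2* stood at 3040 CPM, of which most came from the 5 cells of 1 mouse of 28 months (28C1, 17300 CPM). Without 28C1 the sum over the pool was 1100 CPM, and the other 9 mice ranged from 0 to 5680 CPM.

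Diet was then compared gene by gene, with UMIs summed per mouse and edgeR's quasi-likelihood test over 1540 genes in 11 mice. The contrasts with the control diet share the 3 control mice. On high fat 0 genes passed an adjusted p of 0.05 (0.00% of those tested), with 97 at an unadjusted p under 0.05 and 0 with DESeq2. On low protein 0 passed (0.00%), with 71 at an unadjusted p under 0.05 and 0 with DESeq2. In the contractile list, 4 of 26 tested genes on high fat and 3 on low protein were lower at an unadjusted p under 0.05, and 0 were higher. The medians of the list were -0.28 and -0.25 against -0.02 and 0.00 for all genes.

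Under caloric restriction 2 of 1540 genes were lower (0.13%) and 0 higher at an adjusted p of 0.05, with 182 at an unadjusted p under 0.05 and 15 called by DESeq2 (8 higher and 7 lower). Both genes called by edgeR encode secreted proteins. *Wif1* (ENSMUSG00000020218), Wnt inhibitory factor, stood at 99.8 and 98.4 CPM in the caloric restriction mice. It stood at 2390, 2020 and 1380 CPM in the control mice, at 525, 1140 and 1150 CPM on high fat and at 1130, 649 and 1240 CPM on low protein, with the single-mouse library last in each. Both caloric restriction mice lay below the other 9. The log2 fold change against control was -4.01 (SE 0.468, edgeR adjusted p = 0.00195).

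*Igfbp2* (ENSMUSG00000039323) stood at 54.5 and 49.2 CPM under caloric restriction. It stood at 437, 366 and 484 CPM in the control mice, at 406, 291 and 333 CPM on high fat and at 303, 366 and 576 CPM on low protein. Again both lay below the other 9, and the log2 fold change was -2.67 (SE 0.279, edgeR adjusted p = 0.00129). Both genes were called in each of the 11 fits that left out 1 mouse, of which those without CR1 or CR2 leave 1 caloric restriction mouse that is assumed to vary like the other groups. Neither was called when each mouse had to hold at least 20 cells (log2 fold changes -4.35 and -2.81, edgeR adjusted p = 0.569 for both), a fit of 5 mice with 1 control mouse. A UMI of *Wif1* was found in 21.9% and 12.5% of the cells under caloric restriction and in 25.8% to 66.7% in the other mice, and of *Igfbp2* in 14% and 9.38% against 18.8% to 47.1%, at median depths of 4793 and 3949 UMIs per cell under caloric restriction and 1539 to 3918 in the others.

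*Wif1* is also a fibroblast gene, and its level there was set beside it. In fibroblasts it stood at 419 and 725 CPM under caloric restriction and between 442 and 1880 CPM in the other 9 mice, so that the groups overlapped. The log2 ratio of smooth muscle to fibroblasts was lower under caloric restriction by 2.43 for *Wif1* (exact permutation test over 11 mice, p = 0.0182, the smallest the design allows) and, within the 8 mice of the diet pool, by 2.10 (exact permutation test, p = 0.0714). *Wif1* had been chosen for its fall in the same cells, so that these p-values are not independent evidence. *Igfbp2* was near 0 in fibroblasts of every mouse (0 to 41.6 CPM), so that its ratio restates its level in smooth muscle. Fibroblast RNA in the smooth muscle cells moved with the fall: the fibroblast markers held 0.188% and 0.263% of the UMIs under caloric restriction, the lowest of the diet pool, against 0.283% to 0.482% in its other 6 mice, and 0.228% to 0.270% in the single-mouse libraries. In cells without a UMI of *Pdgfra*, *Dcn*, *Col1a1* or *Lum*, *Wif1* stood at 26.7 and 0 CPM under caloric restriction (39 and 26 cells) and between 0 and 2200 CPM in the other mice (4 to 16 cells each). *Igfbp2* stood at 53.4 and 31.9 CPM against 0 to 929 CPM. In these few cells the groups overlapped for both genes, and the part of fibroblast RNA in the fall was not tested further.

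**Figure D5:**
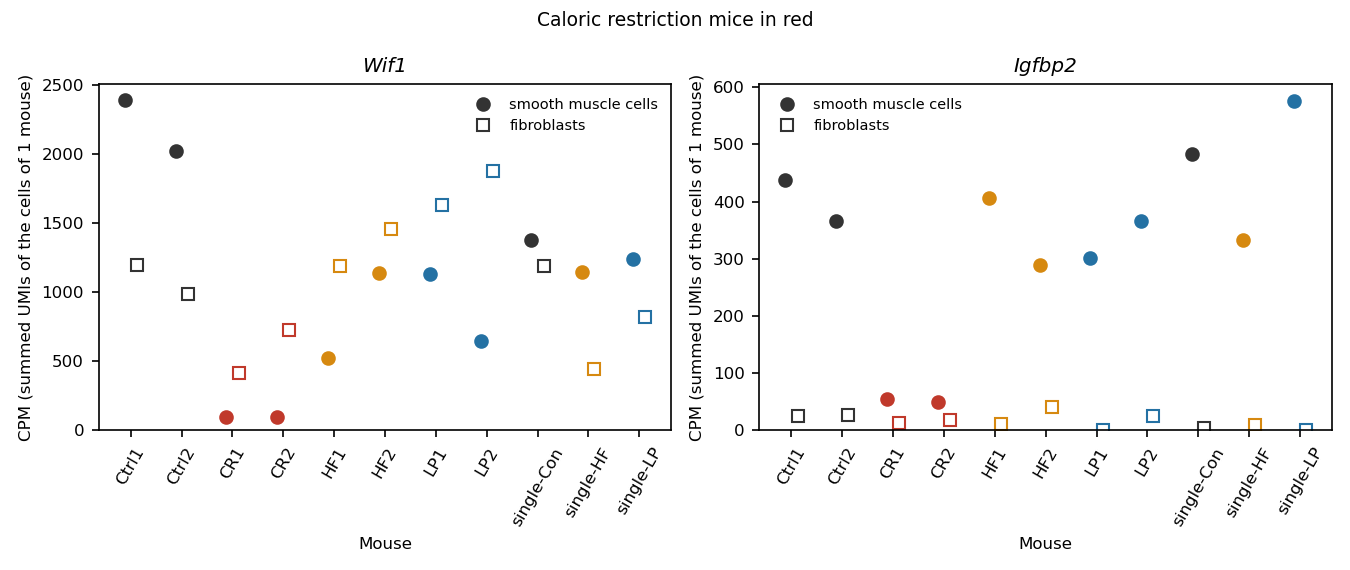
CPM of *Wif1* and *Igfbp2* in smooth muscle cells (filled circles) and fibroblasts (open squares) of 11 FVB/NJ mice, coloured by diet (black control, red caloric restriction, orange high fat, blue low protein). Caloric restriction mice are at 99.8 and 98.4 CPM of *Wif1* and 54.5 and 49.2 CPM of *Igfbp2* in smooth muscle, below the other 9 mice.

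Other genes did not pass. They are given by their lists, except *Hhip*, which was in no list and was followed after its values were seen. *Hhip* stood at 105 and 142 CPM under caloric restriction and between 185 and 576 CPM in the others (log2 fold change -1.59, edgeR adjusted p = 0.0932). *Acta1* had a log2 fold change of 2.44 (SE 0.671, edgeR adjusted p = 0.211), and the striated muscle list held 0.254% and 0.238% of the UMIs under caloric restriction, against 0.0634% to 0.116% in the other 6 mice of the pool and 0.0814% to 0.191% in the single-mouse libraries. In the contractile list 1 of 26 genes was higher at an unadjusted p under 0.05, with a median of 0.11, against -0.01 for all genes. In the secretory list 9 of 12 were higher at an unadjusted p under 0.05, beside the 2 secretory-rich cells of CR1. Of all 1540 genes, 182 lay under this threshold in either direction. *Svs5* stood at 69600 CPM in CR1 but at 1320 CPM in CR2, against 1560 and 1000 CPM in the pooled control mice.

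The single-mouse libraries were compared with the diet pool in the same fit, with diet held constant. Of 1540 genes, 98 were higher (6.36%) and 127 lower (8.25%) in the single-mouse libraries. The library format, the reference (31053 against 32285 genes, with 30406 shared) and the make-up of the tissue differed together and cannot be told apart. All 12 secretory genes tested were higher. *Svs5* stood at 99400, 184000 and 124000 CPM in the control, high fat and low protein libraries and between 1000 and 69600 CPM in the pool (log2 fold change 5.66, edgeR adjusted p = 0.00464). The groups did not overlap, and the secretory-rich cells described above held 28.1%, 55.7% and 32.0% of the UMIs of the 3 libraries.

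Muscle genes differed by less. Of 26 contractile genes tested, 6 were higher (*Tpm1*, *Tpm2*, *Cald1*, *Synpo2*, *Csrp1*, *Tns1*) and 1 lower (*Pdlim3*). *Cald1*, caldesmon, stood at 2930, 1260 and 2820 CPM in the single-mouse libraries and from 1110 to 1960 CPM in the pool (log2 fold change 1.11, edgeR adjusted p = 0.00571), and the high fat library overlapped with the pool. *Pdlim3* stood at 24.2, 74.0 and 182 CPM against 253 to 590 CPM and did not overlap (log2 fold change -2.14, edgeR adjusted p = 0.0027). *Acta1* (2.05, edgeR adjusted p = 0.0218) and *Ptger3* (2.80, adjusted p = 0.032) were higher, and *Acta1* overlapped between the sets. Immediate early genes, which rise when tissue is dissociated, were lower: 11 of 20 passed and 0 were higher. *Fos* stood at 606, 463 and 606 CPM against 1330 to 3820 CPM in the pool (log2 fold change -1.68, edgeR adjusted p = 0.00299). The list held 0.843%, 0.422% and 0.697% of the UMIs of the single-mouse cells and 1.62% to 2.66% in the pool, and in fibroblasts 1.41% to 1.70% against 1.77% to 3.20%.

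Several of the largest falls were listed at 0 in each single-mouse library. *Nme2*, a nucleoside diphosphate kinase, stood between 764 and 1430 CPM in the pool and had 0 UMIs in the 3 libraries, at least 32.7-fold lower than in the lowest mouse of the pool, with the floor at 3 counts over the summed 128356 UMIs of the group (23.4 CPM). In all other cells of the same libraries it stood at 2.33 CPM, against 801 CPM in the pool, so the difference was not particular to smooth muscle. *Atp6v0c* and *Rnasek* were also at 0 UMIs in the smooth muscle cells, with 0.183 and 0.191 CPM in the other cells against 317 and 155 CPM. *Slc8a1*, at least 3.02-fold lower, stood at 0.0581 CPM in the other cells against 8.50 CPM. The largest rise was that of *Ptp4a1*, a phosphatase, at 388, 315 and 636 CPM against 0 to 7.96 CPM (log2 fold change 7.80, edgeR adjusted p = 2.33e-05). The number of calls fell from 225 to 110, 124 and 123 without the control, high fat or low protein single-mouse library.

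The nearest cells in the series were the 3944 smooth muscle cells that the same rule selected in the young and the old individual (1838 and 2106 cells, 20.1% and 23.1% of passing cells). These held 1.16% and 3.49% of their UMIs on genes of epididymis epithelium, led by *Gpx5* (7530 and 18000 CPM), against 0.000139% over the 442 cells, and 0.0225% on secretory genes. Between the 3 single-mouse libraries and these 2, 86 of 857 genes were higher (10.0%) and 124 lower (14.5%) by edgeR's quasi-likelihood test. All 11 secretory genes tested were higher, and 6 of 8 epididymis genes lower, each with 0 UMIs in the single-mouse libraries. *Gpx5* was at least 322-fold lower, on the same floor.

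Among muscle genes, 6 of 21 contractile genes tested were higher (*Tagln*, *Synpo2*, *Synm*, *Csrp1*, *Tns1*, *Fhl1*) and 0 lower. *Tagln* stood at 12000, 4400 and 11000 CPM against 4060 and 3230 CPM (log2 fold change 1.77, edgeR adjusted p = 0.0192). *Cav1* stood at 775, 444 and 909 CPM against 328 and 241 CPM (1.79, edgeR adjusted p = 0.00909). *Acta1* stood at 1310, 537 and 1180 CPM against 126 and 102 CPM (3.60, edgeR adjusted p = 0.00126). Neither set overlapped with the other in these genes. Lower genes included *Npnt*, an integrin ligand of basement membranes (-2.53, edgeR adjusted p = 0.0287), *Mfap4* (-2.26, adjusted p = 0.0125) and *Rgs2*, which dampens Gq-coupled receptors (-2.06, adjusted p = 0.0166). With 1 of the 3 libraries left out, the filter on low counts passed more genes, and the calls were 22 of 9535 genes without the low protein library, 105 of 9495 without the control library and 241 of 9500 without the high fat library. The part of the library and that of the filter in these counts cannot be told apart.

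All 11 FVB/NJ mice were also set against the young and the old individual, a fit chosen after the data had been seen. In it 193 of 1934 genes were higher (9.98%) and 221 lower (11.4%). Of the 6 contractile genes called with the 3 libraries, *Tagln*, *Synpo2* and *Fhl1* were called here too, and *Synm*, *Csrp1* and *Tns1* were not (edgeR adjusted p = 0.194, 0.142 and 0.512). *Cav1* and *Acta1* (adjusted p = 0.0497) were also called higher, and *Npnt*, *Mfap4* and *Rgs2* lower. *Wif1* ranged from 98.4 to 2390 CPM in the 11 mice against 87.0 and 11.6 CPM (log2 fold change 4.61, edgeR adjusted p = 0.0132), and *Rorb*, an orphan nuclear receptor, from 125 to 562 CPM against 9.50 and 1.33 CPM (6.08, edgeR adjusted p = 1.27e-05). Each of the 11 mice lay above both individuals in both genes. *Isl1*, a LIM homeobox factor, was found at a median of 74.0 CPM (0 to 218) and had 0 UMIs in both individuals (edgeR adjusted p = 2.7e-05). *Hoxd13* and *Hoxa13* were too low to be tested, with medians of 55.5 and 37.2 CPM against 0.594 and 0 CPM and 0.297 and 0 CPM. *Hoxa10* had a median of 95.7 CPM (0 to 194) against 69.5 and 20.8 CPM, and did not pass (edgeR adjusted p = 0.0538). The young individual was, like the mice of the pool, 3 months old and FVB/NJ. The pool, which gave 8 of the 11 mice, differed from the single-mouse libraries in format and gene reference. Tissue make-up, library, format and reference cannot be told apart in these differences.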

How the data were processed

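Whole-number UMI counts per gene and cell were deposited by the authors for each library, with tag assignments for the pooled mice. The headers of the deposited matrices name Cell Ranger 3.1.0 and 6.0.1, and the submitters' processing notes name Seurat and mm10. Identifiers shared by both references (30406 genes) were used. The cells and the 19 gene lists were chosen with earlier results of these data known. Mice of the pools were assigned from the deposited tag configuration together with the study's list of mice. The GEO sample labels do not give this assignment, and every diet, age and rapamycin comparison within a pool rests on it. Counts were summed per mouse (at least 10 selected cells) and tested with edgeR 4.0.16 (quasi-likelihood, TMM, Benjamini-Hochberg adjustment) in R 4.3.3, with DESeq2 1.42.0 as an alternative. In simulated counts edgeR recovered 86.4% of changed genes for high fat (1398 genes tested), 85.7% for low protein (1468) and 94.6% for caloric restriction (1407). Of its calls there, 5.92%, 2.41% and 2.78% were of unchanged genes. The size of the differences put into those counts is not given here. What share of real diet differences the fits would find was not tested. Shares were compared by exact two-sided permutation tests. Ratios between cell types used log2(CPM + 10) within a mouse. Fibroblasts held a UMI of *Pdgfra*, a UMI of *Dcn*, *Col1a1* or *Lum*, and none of *Myh11*, *Ptprc* or *Pecam1*. Pericytes (121 cells in the 9 mice compared) held a UMI of *Rgs5*, a UMI of *Kcnj8*, *Abcc9* or *Cspg4*, and none of *Ptprc* or *Pecam1*. Immune cells held a UMI of *Ptprc* and a UMI of *Tyrobp*, *Cd3e* or *Cd3g*. The direction of these genes between classes was set in whole or in part by the selections. For shares of cells with a UMI, cells were thinned to 1000 UMIs in 1 random draw, which differed from the expected share by up to 5.84 percentage points in smooth muscle cells (*Cav1*, then 3.67). Binomial intervals (95%, Clopper-Pearson) and limits from 3 counts cover counting error only.

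Named genes were those of the lists, the 25 with the largest median ratio to all other cells, and the 10 largest rises and 10 largest falls that passed in each comparison. *Isl1*, *Rorb*, *Hhip*, *Wif1* and *Igfbp2* were also followed across comparisons after their values were seen. Alternatives were other size factors, no filter on low counts, stricter and looser selections of cells, and leaving out each mouse. Age and rapamycin were not fitted gene by gene, since no aging mouse held 10 selected cells. The aging and diet pools were fitted only with the limit lowered to 5 cells. Some listed genes are not reported here.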

Additional observations from a re-analysis of the deposited data

Results flagged for a closer look

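The secretory share of the UMIs stood far from the other mice of the same set in 2 mice, at 65.2% in mouse Y2 of the aging pool and at 17.0% in CR1 of the diet pool. Each held 2 cells with 20% or more secretory UMIs, and without them the shares were 0.814% and 0.243%. Immediate early genes held 3.48% of the UMIs in the second rapamycin mouse of 20 months, far from the other 3 rapamycin mice. These 3 values came from 24 groups and quantities examined, of which chance places about 1 in 20 that far out if values are normally spread. That spread was not tested, and the groups of 4 mice are part of the group of 10.

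The log2 ratio of smooth muscle to fibroblasts differed between caloric restriction and the other diets by -2.43 for *Wif1* and -2.86 for *Igfbp2* (exact permutation test over 11 mice, p = 0.0182 for each). Both genes had been chosen for their fall in smooth muscle cells of the same mice, and *Igfbp2* was near 0 in fibroblasts, so that its ratio restates that fall.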

How the results depend on the processing

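Without a filter on low counts, 26 genes were called on high fat, 14 on low protein, 50 under caloric restriction (39 higher) and 463 between the single-mouse libraries and the young and old individual. DESeq2 called 15 under caloric restriction, and the fit with at least 20 cells called 0. The comparison of single-mouse libraries with the pool gave 119 calls with at least 2 UMIs of each part of the rule and 140 in cells with few epithelial UMIs, each with 1 single-mouse library below 10 cells and so left out as well. The comparison with the young and old individual gave 386 of 8368 genes in cells with few epithelial UMIs, where 4 mice were left, and 414 of 1934 with all 11 FVB/NJ mice, against 210 of 857. The diet pool alone gave 3 under caloric restriction, and both of these fits were added after seeing the data. When 1 mouse was left out in turn, the calls ran from 0 to 1 on high fat, 0 to 0 on low protein, 2 to 27 under caloric restriction (27 without CR2, 22 of them higher), 110 to 232 for single-mouse libraries against the pool and 22 to 241 against the young and old individual. The share differences ran from 5.68 to 9.42 percentage points for caloric restriction, -6.45 to -4.96 for single-mouse libraries (where the adjusted p was 0.0159 without CR2), -6.06 to -4.57 for the aging pool, -0.41 to 0.013 for 3 months against older (0.013, reversed, without Y2) and 0.0302 to 0.385 for rapamycin. The causes were not tested. Of the 2, 20 and 20 genes named by size for caloric restriction, single-mouse libraries against the pool, and these against the young and old individual, 0 reversed in the alternatives run, and the call was lost in 2 of 40, 39 of 337 and 15 of 254 refits of single genes. No paired analysis was possible because replicate numbers only name mice. The aging mice, with 2 to 6 cells each, limit what their shares can show. The fit against the young and old individual could not be run at 20 cells.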
